A study of Mus musculus with 8 samples.

Results

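*Fkbp5*, *Sgk1*, *Tsc22d3*, *Zbtb16*, *Pdk4*, *Sult1a1*, *Nr3c1*, *Nr3c2*, *Errfi1* and *Map3k6* are the glucocorticoid receptor genes and genes known to respond to glucocorticoids that were followed here, chosen by name, and all 10 were found among the 38031 genes counted. RNA-seq libraries of total RNA from the primary motor cortex (M1) of male Swiss Webster mice were compared, 4 from tissue given *Fezf2 shRNA* and 4 from tissue given *non-silencing shRNA* (control). All mice received lentivirus in M1 at P21 to P25, carrying mCherry and the shRNA under the *Synapsin I* promoter, and tissue was taken at P49 to P53 by its mCherry expression. The question was which genes of the mature cortex depend on *Fezf2*, which encodes a transcription factor of layer 5 projection neurons. As a model the design has limits: the virus is driven in neurons, the dissected tissue holds all cell types and untransduced neurons, and all mice went through surgery and anaesthesia. Corticosterone was not among the measurements used here, and whether each library was a separate animal is given only as 4 of each treatment, so p-values measure the spread between these libraries.

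Corticosterone, the main glucocorticoid of mice, enters cells and binds the glucocorticoid receptor (*Nr3c1*) and the mineralocorticoid receptor (*Nr3c2*), which in the brain has a higher affinity for the same hormone. The bound receptor moves to the nucleus and binds DNA as a dimer at an imperfect palindrome, near genes such as *Fkbp5*, *Sgk1*, *Tsc22d3* and *Per1*. FKBP5 is a co-chaperone that lowers the receptor's affinity for hormone, and so closes a short negative feedback loop. In brain tissue many of these genes are also transcribed in glia and blood vessels.

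Promoter windows from RefSeq (GRCm38.p6) were searched on both strands for the perfect form of the receptor's palindrome, AGAACA and TGTTCT with 3 bases between them. Imperfect palindromes and sites outside these windows were not searched, so an absent match does not show that a gene lacks a site. Of the 10 genes, 8 matched the table, with 16 windows of 300 bases. The palindrome was found in 1 of these windows, in *Sgk1*, and in 3 of 32851 windows (0.00913%) of the whole table. The 250 bases before that *Sgk1* start site, chr10:21993640-21993889 on the plus strand, are shown with the palindrome in capitals.
Sgk1: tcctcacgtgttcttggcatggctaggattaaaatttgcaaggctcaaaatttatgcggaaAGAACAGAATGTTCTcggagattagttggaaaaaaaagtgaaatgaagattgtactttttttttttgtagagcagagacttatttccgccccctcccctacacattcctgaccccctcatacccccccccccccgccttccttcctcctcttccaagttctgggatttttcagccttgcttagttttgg
The first base of the match lies 189 bases before the start site of this window, and its last base 951 bases before the start of the *Sgk1* transcript whose counts were used. A single hexamer, AGAACA or TGTTCT, counted also where it was part of the palindrome, was in 19.0% of all windows. By gene, it was in at least 1 window of 21.3% of the genes in the whole table. Among the 10 genes it was in windows of *Sgk1*, which has 6 windows, *Sult1a1* and *Tsc22d3*. The *Tsc22d3* match, at chrX:140600702-140600707, lies outside the interval whose counts were used. A match describes the letters of the window and is not evidence of binding.

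The *Fezf2 shRNA* itself was compared with the annotated transcripts of the 10 genes. Its 19 nt are in *Fezf2* in full, and the longest run shared with any of the 10 genes was 9 nt, in *Nr3c2*. Runs of that length or longer were found in 10.5% of 55341 genes. Capitals mark the shared run, 5′ to 3′.
Fezf2: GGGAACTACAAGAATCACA
Nr3c2: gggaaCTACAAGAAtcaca

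The libraries held between 54684016 and 58003814 counts on genes. *Fezf2*, the targeted gene, had 723 ± 35.4 normalized counts (SD, n = 4) in controls and 591 ± 22.1 (SD, n = 4) in *Fezf2 shRNA*-treated samples, with no overlap, a log2 fold change of -0.29 and an adjusted p of 0.0765 by edgeR's quasi-likelihood test. Normalized counts are scaled to a common effective library size, the mean over the 8 libraries. They cover the genomic interval of 1 transcript per gene, introns included and both strands together, so they mix spliced and unspliced RNA. In bulk tissue, fewer cells of a type and less RNA per cell cannot be told apart. Fold changes are *Fezf2 shRNA* over control, and the threshold was an adjusted p of at most 0.05 with a log2 fold change of at least 0.2 in either direction.

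None of the 10 genes passed that threshold. In all, 7 passed the filter on low counts and 0 of the 7 were past the threshold, against 2.19% of the 9959 genes tested (2.06% increased and 0.131% decreased). An unadjusted p under 0.05 was reached by 3 of the 7, with *Sgk1* and *Tsc22d3* lower and *Nr3c2* higher, against 19.7% of all genes (7.85% lower and 11.8% higher). DESeq2 without a prior on the fold changes placed 1 of the 7, *Sgk1*, past the threshold, against 7.55% of all genes. The treatments did not overlap in 2 of the 7, against 11.8% of all genes: *Sgk1* was lower without overlap, as were 4.41% of genes, and *Nr3c2* higher, as were 7.41%. The median log2 fold change of the 7 was -0.20, against -0.03 over all genes tested.

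**Figure D1:**
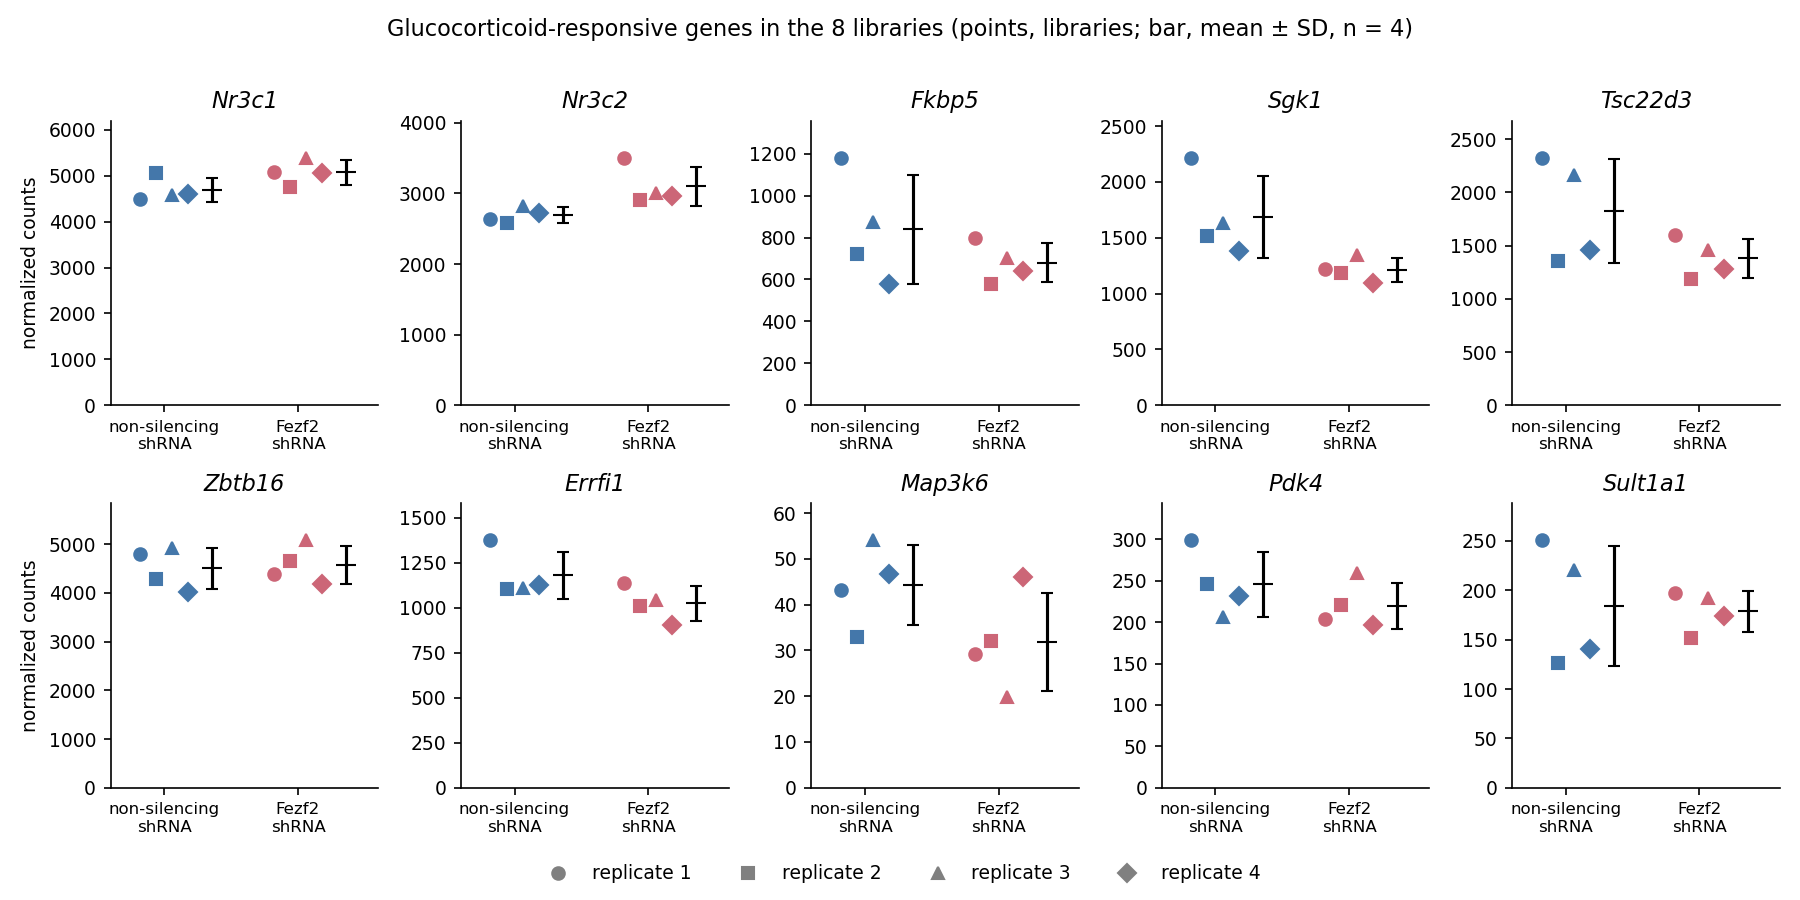
Normalized counts of the 10 genes in each library (points, shape by replicate number) for non-silencing shRNA in blue and Fezf2 shRNA in red, with the mean and SD (n = 4) as bars; each vertical axis starts at 0 and has its own scale. The treatments do not overlap in Sgk1 and Nr3c2, and control 1 is the highest of the controls in 6 of the 10 genes.

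The 2 receptor genes were somewhat higher in *Fezf2 shRNA*-treated samples. *Nr3c2* (ENSMUSG00000031618, chr8:76908272-77242530, plus strand) had 2640, 2585, 2829 and 2728 normalized counts in controls 1 to 4 and 3508, 2908, 3013 and 2970 in the *Fezf2 shRNA*-treated samples 1 to 4. Every treated sample was above every control, and *Fezf2 shRNA* 1 stood highest. This was a log2 fold change of 0.20 (standard error 0.0712, edgeR adjusted p = 0.161). The exact permutation test, two-sided over the 70 assignments of 4 against 4, gave p = 0.0286, the smallest it can give. The interval of *Nr3c2* is 334.259 kb long and 0.884% of it is exonic. When a gene-length offset was fitted, which sets the differences of genes of like span to 0 on average, its log2 fold change was -0.05, so its direction depends on that choice.

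*Nr3c1* (ENSMUSG00000024431, on chromosome 18), the glucocorticoid receptor, had 4500, 5071, 4580 and 4594 normalized counts in controls and 5087, 4748, 5396 and 5072 in *Fezf2 shRNA*-treated samples. Control 2 was at the level of *Fezf2 shRNA* 4 and above *Fezf2 shRNA* 2, so the treatments overlapped. This was a log2 fold change of 0.12 (standard error 0.0627, edgeR adjusted p = 0.320; exact permutation p = 0.0571), and 0.05 with the length offset.

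Because several annotated transcripts of a gene are nested, the difference of their counts gives reads on a stretch between their ends. For *Nr3c1* this separated a stretch that was wholly exonic from one with 2.74% exonic bases, called intronic here. The exonic stretch had 2428, 2877, 2494 and 2545 normalized counts in controls and 2492, 2434, 2691 and 2413 in *Fezf2 shRNA*-treated samples, and the treatments overlapped. The intronic stretch had 2448, 2706, 2414 and 2475 in controls and 2922, 2584, 3138 and 3048 in treated samples, of which *Fezf2 shRNA* 2 lay within the range of the controls. The log2 fold changes were -0.04 for the exonic stretch (adjusted p = 0.806 over all stretches) and 0.22 for the intronic one (adjusted p = 0.144). The log2 ratio of exonic to intronic counts was lower in every treated sample than in every control, by 0.26 on average (exact permutation p = 0.0286). The same ratio was lower in 85.8% of the 730 genes with both stretches and lower without overlap in 15.2%, with a median difference of -0.24. In *Nr3c2* the log2 fold change was 0.08 for the exonic stretch and 0.21 for the intronic one (permutation p of the ratio 0.571).

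Of the genes that respond to glucocorticoids, 7 of 8 had lower fitted levels in *Fezf2 shRNA*-treated samples. The median of all genes tested was also below 0 (-0.03), and *Sult1a1* was higher in 5 of 18 alternatives. Control 1 was the highest control in 6 of the 10 genes, so these are not 7 separate decreases. *Sgk1*, which encodes a kinase that regulates ion channels and transporters, had the smallest unadjusted edgeR p of the 8 (0.00441). *Sgk1* (ENSMUSG00000019970, chr10:21994666-21999903, plus strand, 12 exons) had 2218, 1521, 1631 and 1384 normalized counts in controls and 1217, 1186, 1348 and 1094 in *Fezf2 shRNA*-treated samples. All treated samples were below all controls, by a small gap between control 4 and *Fezf2 shRNA* 3, and control 1 stood well above the other controls. This was a log2 fold change of -0.48 (standard error 0.133, edgeR adjusted p = 0.0912; exact permutation p = 0.0286). DESeq2 gave -0.47 with an adjusted p of 0.0146, and edgeR with the length offset gave -0.37 with an adjusted p of 0.370. Without control 1 the log2 fold change was -0.32 (edgeR adjusted p = 0.158), which is 1 of 8 fits that leave out a library, with a range from -0.56 to -0.32 and adjusted p from 0.0691 to 0.211.

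The reads at the *Sgk1* locus did not all move in the same direction. Other genes within the upstream stretch described here were not looked for, so its reads are not shown to come from *Sgk1*. Longer annotated transcripts start 5′ of the counted one, and the stretch from 21882184 to 21993889 on chromosome 10, of which 1.64% is exonic, holds the palindrome shown above near its 3′ end. This upstream stretch had 679, 790, 745 and 847 normalized counts in controls and 994, 823, 976 and 1113 in *Fezf2 shRNA*-treated samples. It was higher in treated samples, with *Fezf2 shRNA* 2 just below control 4, and its log2 fold change was 0.35 (standard error 0.109, edgeR adjusted p = 0.0718 over all stretches). The log2 ratio of the counted interval to the upstream stretch was 1.71, 0.94, 1.13 and 0.71 in controls and 0.29, 0.53, 0.46 and -0.03 in treated samples. These values did not overlap, with a difference of -0.81 (exact permutation p = 0.0286). No share over all genes was computed for this ratio. For the ratio of exonic to intronic stretches, 15.2% of 730 genes were lower without overlap. The intronic stretches of all genes had a median of 0.19 on the log2 scale, and 10.9% were past the threshold, so the direction of the upstream stretch was that of most intronic stretches. Counting the widest *Sgk1* transcript, which joins both, gave a log2 fold change of -0.17 (edgeR adjusted p = 0.298).

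**Figure D2:**
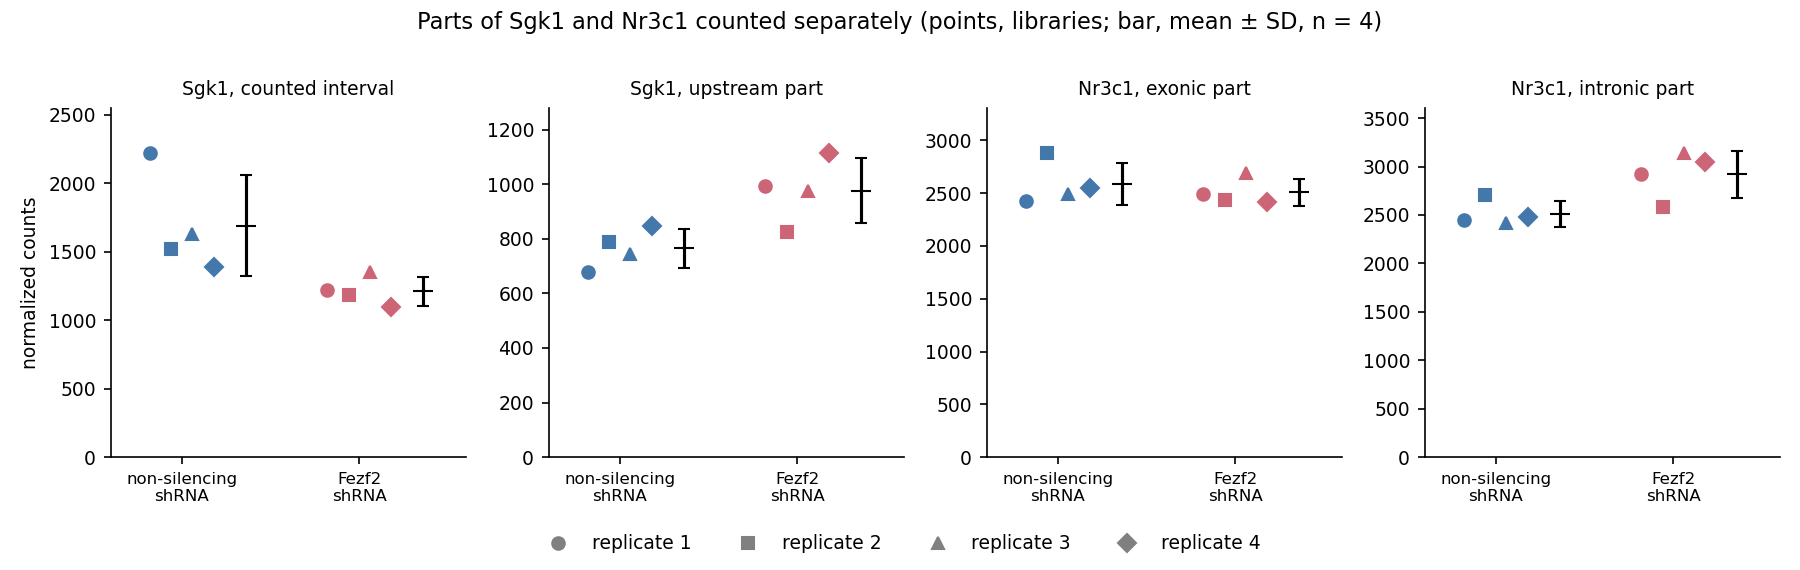
Normalized counts per library (points, shape by replicate number; bars, mean and SD, n = 4) for the counted Sgk1 interval, the Sgk1 stretch upstream of it, and the exonic and intronic stretches of Nr3c1; vertical axes start at 0 and differ in scale. The counted Sgk1 interval is lower with Fezf2 shRNA (log2 fold change -0.48) and the upstream stretch higher (0.35), while in Nr3c1 the intronic stretch (0.22) is higher and the exonic one is not (-0.04).

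*Tsc22d3* (ENSMUSG00000031431, chrX:140539528-140543187, minus strand) encodes the glucocorticoid-induced leucine zipper GILZ, which restrains inflammatory signalling. It had 2327, 1358, 2161 and 1457 normalized counts in controls and 1602, 1185, 1458 and 1280 in *Fezf2 shRNA*-treated samples. Controls 1 and 3 were high, while controls 2 and 4 lay within the range of the treated samples. This was a log2 fold change of -0.40 (standard error 0.172, edgeR adjusted p = 0.230; exact permutation p = 0.20). Without control 1 it was -0.26 (edgeR adjusted p = 0.433), and with the length offset -0.28 (edgeR adjusted p = 0.619). Its exonic stretch had a log2 fold change of -0.37 and its intronic stretch, with 1.78% exonic bases, -0.19 (permutation p of the ratio 0.429).

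*Fkbp5* (ENSMUSG00000024222, chr17:28399094-28486149, minus strand) had 1181, 722, 873 and 579 normalized counts in controls and 796, 577, 705 and 642 in *Fezf2 shRNA*-treated samples. Control 4 was about as low as the lowest treated sample and control 1 was the highest of all. This was a log2 fold change of -0.30 (standard error 0.191, edgeR adjusted p = 0.390; exact permutation p = 0.314). Without control 1 it was -0.09, so the size of the *Fkbp5* difference rested on that library. With the length offset it was -0.38 (edgeR adjusted p = 0.529). An annotated antisense gene covers 11.4% of the *Fkbp5* interval, and its reads could not be told apart from those of *Fkbp5*.

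*Errfi1*, which encodes an inhibitor of the EGF receptor, had 1376, 1105, 1111 and 1127 normalized counts in controls and 1140, 1012, 1043 and 902 in *Fezf2 shRNA*-treated samples. The treatments overlapped by *Fezf2 shRNA* 1 alone, and the log2 fold change was -0.20 (standard error 0.0967, edgeR adjusted p = 0.270). Without control 1 it was -0.12, and with the length offset also -0.12. *Zbtb16*, which encodes the zinc finger transcription factor PLZF, ranged from 4027 to 4911 in controls and from 4188 to 5081 in treated samples. Its log2 fold change of 0.02 (standard error 0.0829, edgeR adjusted p = 0.898) changed sign in 6 of 18 alternatives, and was -0.14 with the length offset.

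The remaining 3 genes were under the filter and are given from a fit without one. *Pdk4*, whose product inhibits the pyruvate dehydrogenase complex, ranged from 207 to 299 in controls and from 196 to 259 in treated samples (log2 fold change -0.15, standard error 0.147). Its difference was -0.045 on the log2 scale without control 1, -0.23 without control 3, -0.24 without *Fezf2 shRNA* 3 and -0.092 without *Fezf2 shRNA* 4. *Sult1a1*, a phenol sulfotransferase gene, had 251, 126, 220 and 140 in controls and 197, 152, 192 and 174 in treated samples (log2 fold change -0.04, standard error 0.208), with controls both above and below all treated samples. *Map3k6*, a MAP kinase kinase kinase gene, had 43, 33, 54 and 47 in controls and 29, 32, 20 and 46 in treated samples (log2 fold change -0.47, standard error 0.295, edgeR adjusted p = 0.566), which was -0.31 without *Fezf2 shRNA* 3 and -0.20 with the prior of DESeq2. All 3 overlapped between treatments.

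**Figure D3:**
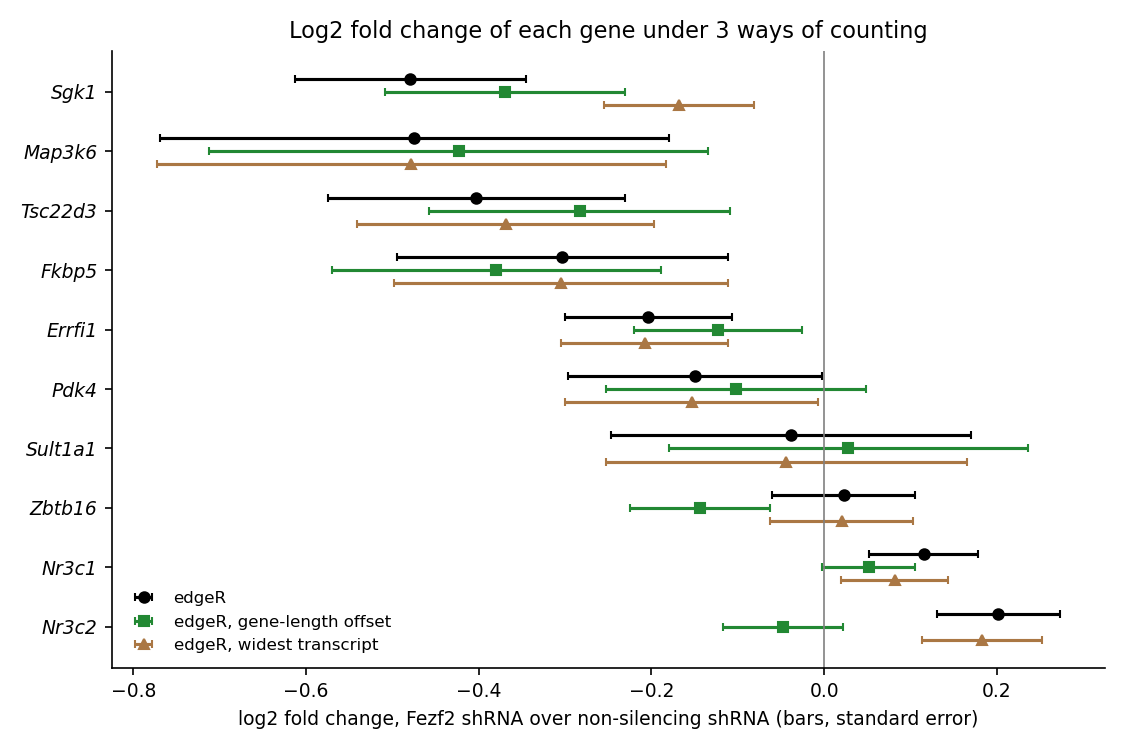
Log2 fold change of each gene, Fezf2 shRNA over non-silencing shRNA (points, with standard errors as bars), from edgeR on the lowest-numbered transcript, with a gene-length offset, and on the widest transcript; Pdk4, Sult1a1 and Map3k6 come from fits without a filter. Sgk1 moves from -0.48 to -0.17 with the widest transcript, and Nr3c2 from 0.20 to -0.05 with the length offset.

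Per kb of interval, *Tsc22d3* was the most abundant at 438 normalized counts per kb and *Sgk1* followed at 277, with ranges over the 8 libraries that overlapped. *Errfi1* (79.8), *Nr3c1* (62.7) and *Sult1a1* (52.0) came next, each overlapping its neighbour in that order. *Zbtb16* (25) and *Pdk4* (18) overlapped each other, as did *Fkbp5* (8.72) and *Nr3c2* (8.67), and *Map3k6* was lowest at 3.14. These levels include introns, so the order is one of reads per kb of interval and not of messenger RNA.

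The spread between the control libraries was wide in several of these genes. The coefficient of variation over the 4 controls was 33.0% for *Sult1a1*, 30.8% for *Fkbp5*, 26.8% for *Tsc22d3* and 21.8% for *Sgk1*, against 5.55% for *Nr3c1* and 3.96% for *Nr3c2*. Over the 4 *Fezf2 shRNA*-treated samples it was 11.5%, 13.8%, 13.4% and 8.66% for the same 4 genes, 5.22% for *Nr3c1* and 8.89% for *Nr3c2*, so the contrast was mainly one of the controls. Control 1 was the highest control for *Fkbp5*, *Sgk1*, *Tsc22d3*, *Sult1a1*, *Errfi1* and *Pdk4*. After the mean of each treatment was subtracted, *Tsc22d3* and *Sult1a1* followed each other over the 8 libraries with Pearson's r = 0.985 (exact permutation p = 0.00347, adjusted over 45 pairs 0.156) and Spearman's rho = 1.0 (permutation p = 0.00347, adjusted 0.156). Without the 2 libraries farthest from the median r was 0.975. *Fkbp5* and *Tsc22d3* had r = 0.890 (exact permutation p = 0.0156, adjusted 0.277), rho = 0.905 (permutation p = 0.0208, adjusted 0.312) and r = 0.903 without the 2 farthest libraries. For *Fkbp5* and *Sgk1* r was 0.875 (exact permutation p = 0.0260, adjusted 0.277) and rho 0.738 (permutation p = 0.0625, adjusted 0.434), and r was 0.476 without controls 1 and 4, on which that relation rested. No pair of the 45 passed an adjusted p of 0.05.

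**Figure D4:**
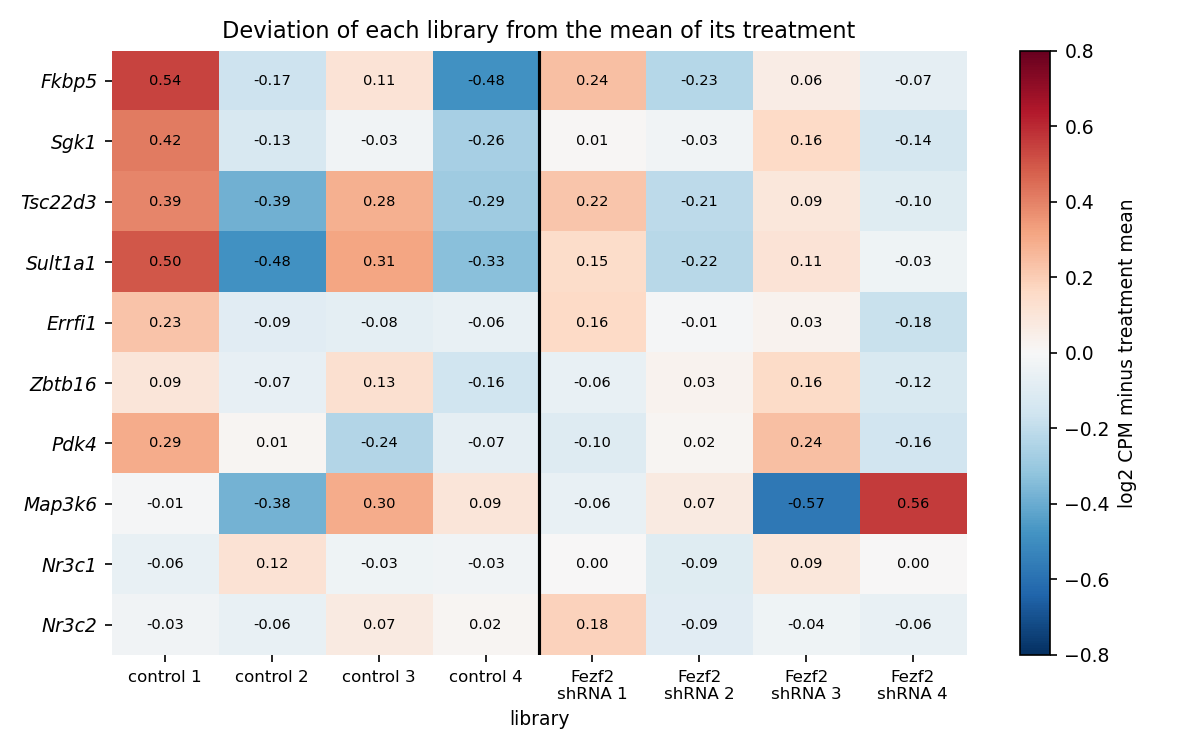
Log2 CPM of each gene (rows) in each library (columns) minus the mean of that treatment, in colour and as printed values. Control 1 is above the control mean in Fkbp5 (0.54), Sult1a1 (0.50), Sgk1 (0.42) and Tsc22d3 (0.39), while the largest deviation of Nr3c1 and Nr3c2 is 0.18.

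Likeness to *Fkbp5*, *Sgk1* and *Tsc22d3* was also ranked over the genes that passed the filter on low counts, which leaves out *Sult1a1*. Over the 8 libraries, after subtraction of treatment means, the genes tested that were most like *Fkbp5* were *Iars2* (r = 0.988), *Gm26837* (r = 0.973) and *Tyw1* (r = 0.972). Those most like *Sgk1* were *Rbm14* (r = 0.982), *Rbm4* (r = 0.958) and *Psg16* (r = 0.949), and those most like *Tsc22d3* were *Cep126* (r = 0.989), *Gm42669* (r = 0.981) and *Asph* (r = 0.97). Among 9958 genes tested, *Tsc22d3* ranked 43 and *Sgk1* 51 in likeness to *Fkbp5*. In likeness to *Sgk1*, *Fkbp5* ranked 33 and *Tsc22d3* 131, and in likeness to *Tsc22d3*, *Fkbp5* ranked 61 and *Sgk1* 314. All of these values share libraries and depth and are given as a description.

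A wider list of 26 genes that glucocorticoids induce in other settings had a median of the same sign. The list was chosen with earlier results of these data known, so this is a description and not separate support. Of its 14 genes tested, 0 passed the threshold with edgeR, against 2.19% of all genes. With DESeq2 1 did, *Slc2a1*, against 7.55% of all genes. In edgeR 11 were lower and 3 higher, with a median log2 fold change of -0.18 against -0.03 over all genes tested. An unadjusted p under 0.05 was found for 3, all lower, against 7.85% of all genes tested that were lower. *Rhob*, which encodes a small GTPase, had 3899 ± 152 normalized counts in controls and 3441 ± 64.3 in *Fezf2 shRNA*-treated samples (SD, n = 4; log2 fold change -0.18, edgeR adjusted p = 0.107) and did not overlap. *Slc2a1*, the glucose transporter GLUT1 of the blood-brain barrier, had a log2 fold change of -0.41 (edgeR adjusted p = 0.128). *Klf15*, a Krüppel-like factor, had 789, 591, 680 and 622 in controls and 588, 590, 473 and 556 in treated samples. Its log2 fold change was -0.28 (edgeR adjusted p = 0.210), and its lowest control was barely above its highest treated sample. *Rhob* and *Klf15* were the 2 of the 14 without overlap, and 4.41% of all genes tested were lower without overlap.

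The chaperones, cofactors and steroid enzymes that act on the receptors were near the level of all genes. Of 23, 19 were tested and 0 passed the threshold with edgeR or DESeq2, against 2.19% and 7.55% of all genes. An unadjusted edgeR p under 0.05 was reached by 1 of the 19, against 19.7% of all genes. Of the 19, 13 were lower and 6 higher, and the median was -0.09. The smallest p values belonged to the coactivators *Crebbp* (log2 fold change 0.15, edgeR adjusted p = 0.215), *Ncoa2* (0.15, adjusted p = 0.263) and *Ncoa1* (0.13, adjusted p = 0.264). Their intervals are 132670, 231609 and 229821 bases long, and their values with the length offset are not given here. Of the 8 genes of the corticotropin-releasing hormone system, which drives corticosterone release from the hypothalamus and also acts within the cortex, only the receptor gene *Crhr1* was tested (log2 fold change 0.07, edgeR adjusted p = 0.760).

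**Figure D5:**
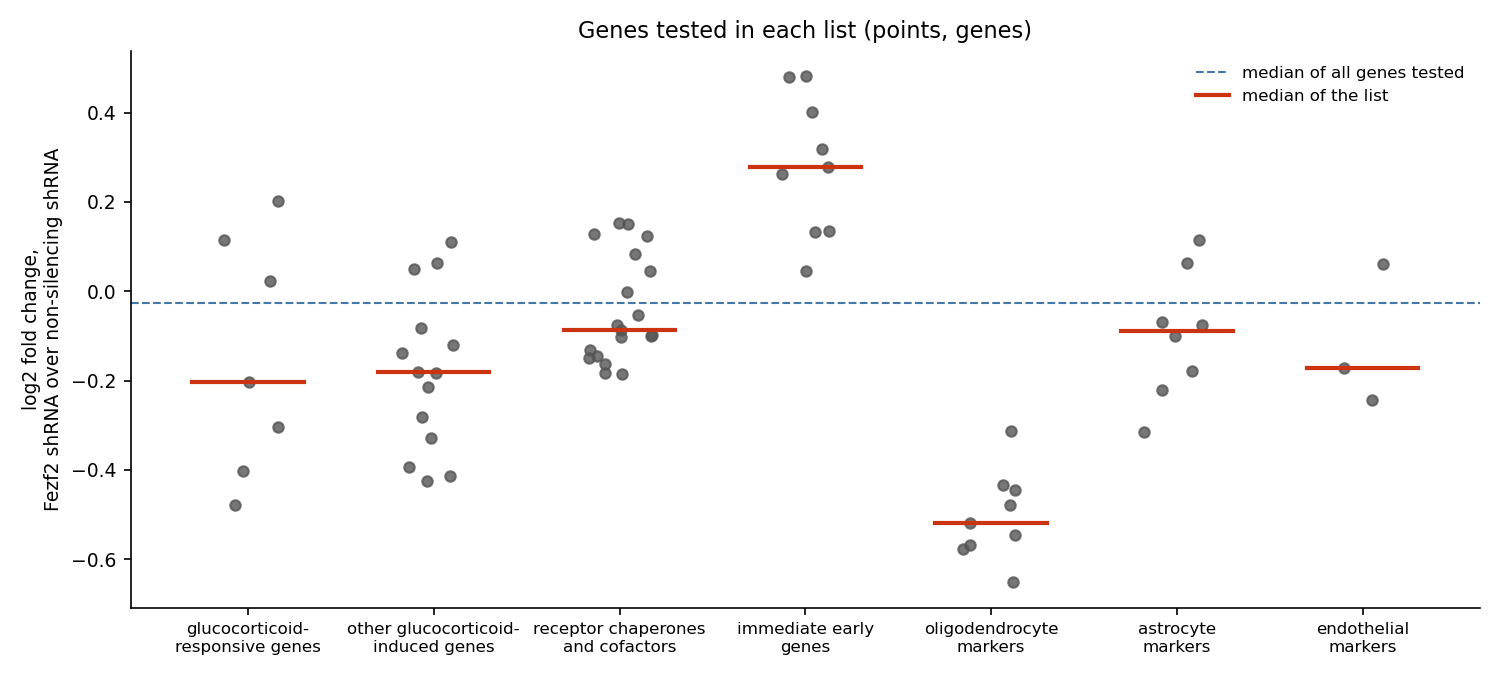
Log2 fold change, Fezf2 shRNA over non-silencing shRNA, of each tested gene (points) in 7 gene lists, with the list median in red and the median of all genes tested as a dashed line. The glucocorticoid-responsive genes (-0.20) and other glucocorticoid-induced genes (-0.18) have medians between those of oligodendrocyte markers (-0.52) and immediate early genes (0.28).

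Markers of oligodendrocytes, and the pericyte marker *Rgs5*, were also lower in *Fezf2 shRNA*-treated samples. The tissue held its defining markers, with all 10 neuronal genes tested, 5 higher and 5 lower, and a median log2 fold change of -0.02. The smallest p values among them belonged to *Rbfox3* (0.28), *Syt1* (0.19) and *Camk2a* (0.16). *Rbfox3* and *Syt1* were higher without overlap, as were 7.41% of all genes tested. *Rbfox3* passed the threshold with DESeq2, against 7.55% of all genes. *Rbfox3* and *Syt1* span 418418 and 513331 bases, and their values with the length offset are not given here. Of 10 oligodendrocyte markers 9 were tested, and all 9 were lower, with a median of -0.52 and the smallest p values in *Mog* (-0.58), *Cldn11* (-0.65) and *Cnp* (-0.43). An unadjusted p under 0.05 was reached by 6 of the 9, against 7.85% of all genes tested that were lower at that level. With edgeR 0 passed the threshold, against 2.19% of all genes, and with DESeq2 2 did, *Mog* and *Cnp*, against 7.55%. Their summed level was 1210, 1645, 1435 and 2186 CPM in controls and 948, 895, 1459 and 1468 in *Fezf2 shRNA*-treated samples. These sums overlapped between treatments. Of the 9 markers 0 were without overlap, against 4.41% of all genes tested that were lower without overlap. All 5 markers of oligodendrocyte precursors and of the stages that follow them were lower (median -0.21, *Bcas1* -0.68, *Gpr17* -0.31, *Vcan* -0.21). An unadjusted edgeR p under 0.05 was reached by 2 of the 5, *Bcas1* and *Gpr17*, and *Bcas1* passed the threshold with DESeq2. The sums of the 5 were 133.9 to 172 CPM in controls and 102 to 134.3 in treated samples, and overlapped.

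The 8 astrocyte markers had a median log2 fold change of -0.09 (*S100b* -0.18, *Aqp4* -0.22, *Slc1a2* 0.11) and sums of 1198 to 1364 CPM in controls and 1207 to 1308 in treated samples. Of 8 endothelial markers 3 were tested (*Abcb1a* -0.17, *Slco1a4* -0.24, *Tek* 0.06), with sums of 66.2 to 93.4 CPM in controls and 61.7 to 75.0 in treated samples. Of 6 pericyte and smooth muscle markers 2 were tested. *Rgs5* had a log2 fold change of -0.32 (edgeR adjusted p = 0.0552), past the threshold with DESeq2, and did not overlap. Over all genes tested, 4.41% were lower without overlap. *Pdgfrb* was at -0.05 and overlapped. The 6 markers summed to 67.5 to 83.7 CPM in controls and 59.5 to 65.2 in treated samples without overlap. *Rgs5* averaged 2964 normalized counts in controls and *Pdgfrb* 652, so the sum largely follows *Rgs5* and is not separate support. The part of these cell types in the differences of *Sgk1*, *Tsc22d3*, *Fkbp5* and *Slc2a1* was not tested.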

How the data were processed

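RNA-seq of 8 M1 tissue samples was used. The authors trimmed reads, aligned them to mm10 with TopHat2 2.1.1 and deposited raw read counts per Ensembl transcript made with multiCov of bedtools 2.26.0. The authors' own DESeq2 results per gene (fold changes and p-values) were also deposited and were not used. Whether reads aligned to several places were counted is not given in the sources used here. Samples were grouped by their titles. Of 94647 transcripts, 91320 were in GENCODE M21 (GRCm38), and the other 3327 held 1.82% of counts and were left out. The transcript with the lowest Ensembl number stood for each gene. Genes over 8 CPM in 4 or more libraries were tested with edgeR 4.0.16 (TMM, quasi-likelihood test, Benjamini-Hochberg adjustment over all genes tested) in R 4.3.3. The study used DESeq2, kept here as an alternative (version 1.42.0). Correlations used log2 CPM with a prior count of 2. Exact permutation tests and figures used Python 3.11.15, scipy 1.17.1 and matplotlib 3.10.9.

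Stretches of genes were differences between nested transcripts, exonic when at least 80% and intronic when at most 5% of bases were exonic, with a mean of at least 100 reads, and were fitted together in edgeR. In per-library ratios 1 was added to each count. Alternatives were other normalizations, filters and tests, a loess offset for gene length (span 0.3), the replicate number as a block, the widest transcript and each library left out. The steps were tested on simulated data. The genes and lists, and the choice of stretches, were made with earlier results of these data known. Named genes are the 10 genes, *Fezf2*, from each other list any gene past the threshold and the 3 tested genes with the smallest p, and the 3 genes most correlated with *Fkbp5*, *Sgk1* and *Tsc22d3*. Some genes under this rule are not reported here. At 54684016 to 58003814 counts per library, replicate spread and not counting error limits most values. These counts exceed the aligned read pairs that the paper lists for each library, so they are not counts of separate fragments.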

Additional observations from a re-analysis of the deposited data

Results flagged for a closer look

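Of 20 sets of 4 values, 1 for each gene and treatment, 2 held a sample far from the other 3 by Dixon's ratio, and chance flags about 1 in 20. *Nr3c1* was highest in control 2, at 5071 normalized counts against 4500 to 4594 in the other controls, and without control 2 its log2 fold change was 0.15. *Errfi1* was highest in control 1, at 1376 against 1105 to 1127 in the other controls.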

How the results depend on the processing

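The number of genes past the threshold, 218 of all genes tested, was 752 with DESeq2 without a prior, 734 with its prior, 111 with the filter at more than 1 CPM, 85 with no filter, 2 with the gene-length offset, and 0 to 401 when 1 library was left out. Both DESeq2 fits placed 1 of the 10 genes, *Sgk1*, past it (log2 fold changes -0.47 and -0.37), and every other alternative placed 0. Without control 1 edgeR placed 0 genes past it, with 1563 at an unadjusted p under 0.05. Over 18 alternatives *Sgk1*, *Tsc22d3*, *Fkbp5*, *Errfi1* and *Pdk4* stayed lower and *Nr3c1* stayed higher in all. *Map3k6* stayed lower in its 17. *Zbtb16* reversed with library totals (-0.0026) and the length offset (-0.14), *Sult1a1* (0.028) and *Nr3c2* (-0.048) with the length offset. With 1 library left out, *Zbtb16* ranged from -0.028 to 0.075 and *Sult1a1* from -0.18 to 0.14. The cause was not tested. The replicate spread, and for *Map3k6* counting error, limits these values.

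Whether replicate numbers shared by the treatments pair the samples is not settled by these values. Same-numbered deviations correlated at 0.307, 0.0931, -0.133 and 0.167 across genes. Controls 1 and 4 correlated best with their own number, control 2 with *Fezf2 shRNA* 3 (0.266) and control 3 with *Fezf2 shRNA* 1 (0.171). With the replicate number as a block 89 genes passed and 0 of the 10, with *Sgk1* at -0.46 and *Tsc22d3* at -0.37. The block lowered the standard error of *Tsc22d3* from 0.172 to 0.0875 (edgeR adjusted p = 0.0852) and that of *Fkbp5* from 0.191 to 0.118 (edgeR adjusted p = 0.247). With block and length offset 2 genes passed, with *Zbtb16* at -0.14, *Sult1a1* at 0.057 and *Nr3c2* at -0.047.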

Other observations

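Genes induced by neuronal activity were also measured. Of 11 immediate early genes 9 were tested and all 9 were higher in *Fezf2 shRNA*-treated samples, with a median log2 fold change of 0.28, 0 past the threshold by edgeR or DESeq2 and 0 at an unadjusted p under 0.05. *Fosl2* (0.28), *Junb* (0.48) and *Npas4* (0.32) had the smallest p values. Their summed level was 394, 946, 331 and 578 CPM in controls and 420, 897, 886 and 391 in treated samples. The sums overlapped between treatments.

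Among the other cell types, 7 of 8 microglial markers were tested, with a median log2 fold change of 0.08. *C1qa* had a log2 fold change of 0.27 and *C1qb* of 0.22. All 5 red blood cell genes were tested and higher, with a median of 0.36 (*Alas2* 0.34, *Hba-a2* 0.47, *Hbb-bt* 0.42) and sums of 26.4 to 92.8 CPM in controls and 46.1 to 122 in treated samples. None of the 6 genes of meninges and fibroblasts was tested, and their sums overlapped (9.39 to 34.9 CPM in controls, 8.19 to 41.4 in treated samples).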
